A study of Mus musculus with 8 samples.

Results

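The Tex genes of the mouse ("testis expressed") are described here in adult testis RNA from 4 libraries labelled Kpna2-/- and 4 labelled WT. Members were taken by a rule on the name: every gene of the deposited table whose Ensembl identifier maps to a symbol made of Tex and a number. Tex11 and Tex15 were left out. Earlier results of these data were known when the group was chosen. The rule found 36 of the 24988 listed genes. Kpna2 is an importin alpha, one of the adaptors by which proteins bearing a nuclear localization signal enter the nucleus, and the study compared gene expression between knockout and wild-type testis, its title naming male infertility as the effect of the loss. The labels give the tissue as adult testis for both groups. The allele, the strain, the exact age and whether a library came from 1 animal were not given in the sources used here. Each p-value can therefore speak only for the spread among these 8 libraries, which may be technical. Bulk RNA of a whole testis cannot tell fewer cells of a type from less RNA per cell.

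The name Tex was given for where transcripts were found, not for a shared sequence or a shared role, and the group holds several kinds of genes. Some serve meiosis and the cohesion of germ cells: Tex12 belongs to the central element of the synaptonemal complex, which holds paired chromosomes together, Tex14 builds the intercellular bridges that join dividing germ cells, and Tex19.1 and Tex19.2 act in the control of transposons in the germ line. Others serve spermatids and sperm: Tex101 is a surface protein that the sperm protein ADAM3 needs to mature, Tex38 works with the palmitoyltransferase ZDHHC19, and Tex43 and Tex37 are proteins of the inside of the flagellar microtubules. A further set works in most cells of the body: Tex10 in ribosome maturation, Tex2 in lipid transfer at the endoplasmic reticulum, Tex261 in export from it and Tex264 in its breakdown by autophagy. The Tex13 genes, Tex16 and Tex28 lie on the X chromosome.

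The libraries held 31133443 to 37797812 reads assigned to genes, of which the 36 Tex genes took 0.345% to 0.372%. Values are CPM (reads per gene scaled by library size, as the authors scaled them), given as mean ± SD with n = 4 libraries per label. Log2 fold changes are knockout label minus wild-type label on the scale of log2(CPM + 0.5), where the change of a low gene appears smaller than it is. "Rose", "fell" and "called" mean an adjusted p under 0.05 by limma over the 22027 genes whose mean reached 0.5 CPM. The targeted gene did not fall: Kpna2 stood at 14.0, 15.1, 14.0 and 12.4 CPM in the wild-type-labelled libraries, against 15.3, 20.2, 19.4 and 21.7 CPM in the knockout-labelled ones, 38.1% higher in the mean (limma adjusted p = 0.0079, exact two-sided permutation p = 0.0286, the smallest that 70 assignments allow). Directions below are therefore those of the labels. A value for the whole gene does not tell which exons the reads came from, so the deletion itself was not checked.

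All 36 genes passed the filter on low values and were measured with 46 reads or more in each library. Their mean level over the 8 libraries ran from 2.28 CPM for Tex28 to 707 CPM for Tex2, with a median of 63.2 CPM against 9.17 CPM over all tested genes. Per length, in CPM per kb of annotated exon, the highest level was that of Tex33 (363), a flagellar gene, followed by Tex48 (249), Tex37 (197) and Tex35 (168). On the same scale Tex2 stood at 127, Tex101 at 105 and Tex43 at 94.9 CPM per kb. The genes of meiosis, germ cell cohesion and transposon control were lower. Tex14 stood at 14.9, Tex19.2 at 14.1, Tex12 at 11.6 and Tex19.1 at 5.17 CPM per kb. At the low end were X-linked genes: Tex13c2 at 2.69, Tex13b at 2.44, Tex28 at 1.60 and Tex16 at 1.28 CPM per kb. Tex13a (50.1 CPM per kb) and Tex13c1 (20.6 CPM per kb) were the X-linked genes of higher level. The plot of levels shows that both labels gave nearly the same order.

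**Figure D1:**
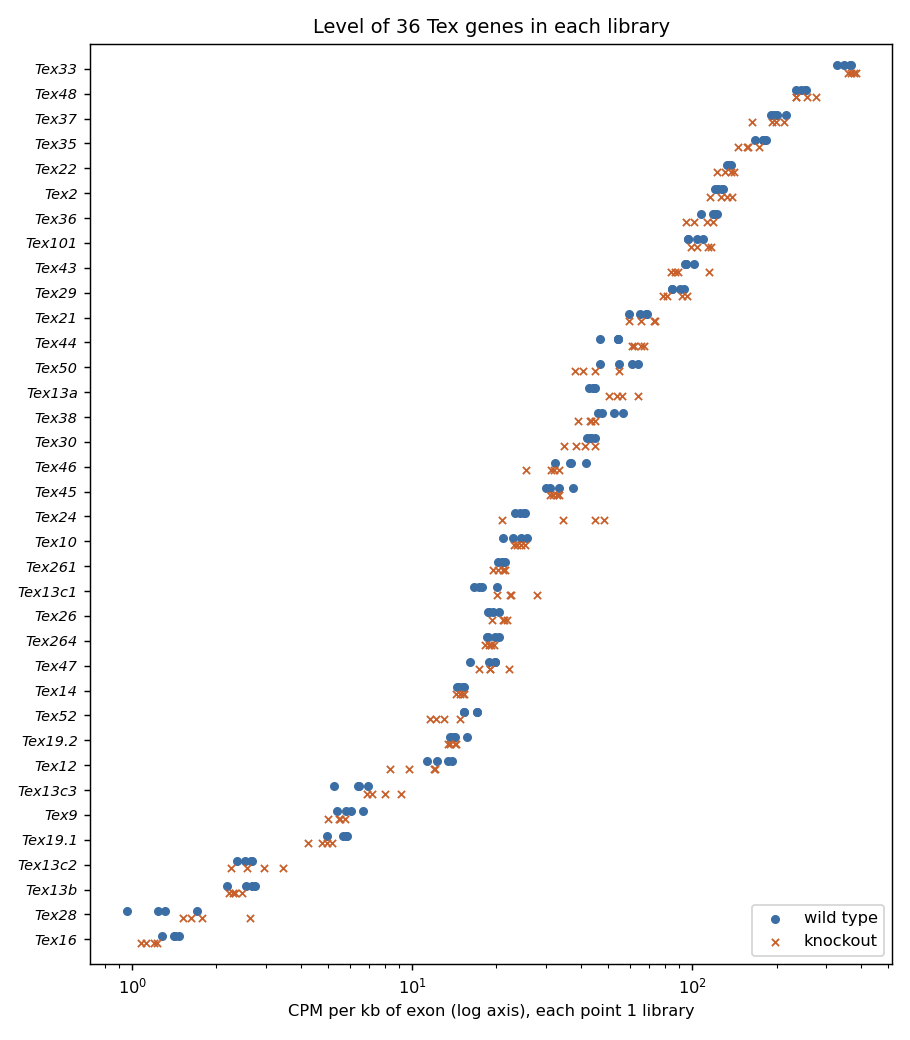
Level of the 36 Tex genes in each of the 8 libraries, in CPM per kb of annotated exon on a log axis; circles are the 4 libraries labelled wild type and crosses the 4 labelled knockout. The range runs from 1.28 CPM per kb for Tex16 to 363 for Tex33 (means of 8), and Tex24 has the widest spread among the libraries labelled knockout.

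Of the 36 Tex genes, 6 were called, which is 16.7% against 16.9% of all tested genes, a share close to that of the table as a whole. Under the knockout label 3 rose (Tex13a, Tex13c1 and Tex44; 8.62% of all tested genes rose) and 3 fell (Tex52, Tex38 and Tex50; 8.32% of all tested genes fell). For 5 Tex genes the 4 values under each label were fully separate (13.9%, against 20.9% of all tested genes). The median log2 fold change was -0.03 over the Tex genes and -0.01 over all tested genes, and the median size of the change was 0.11 and 0.13. No Tex gene reached a log2 fold change of 1 in size, which 423 of 22027 tested genes did. At so small a share, finding none among 36 genes says little about the Tex genes. Among called genes, the median size was 0.33 for the Tex genes and 0.48 for all genes. The Tex genes also had a higher level (median 63.2 CPM, against 9.17 CPM over all tested genes). With 1 library left out at a time, 1 to 3 Tex genes were called lower and 3 or 4 higher, while the share called over all tested genes fell to between 12.7% and 16.2%. The count lower was 1 without wild-type replicate 2 (Tex52 alone, with 6.16% of all tested genes lower) and 1 without knockout replicate 3 (Tex52 alone, with 7.17%).

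**Figure D2:**
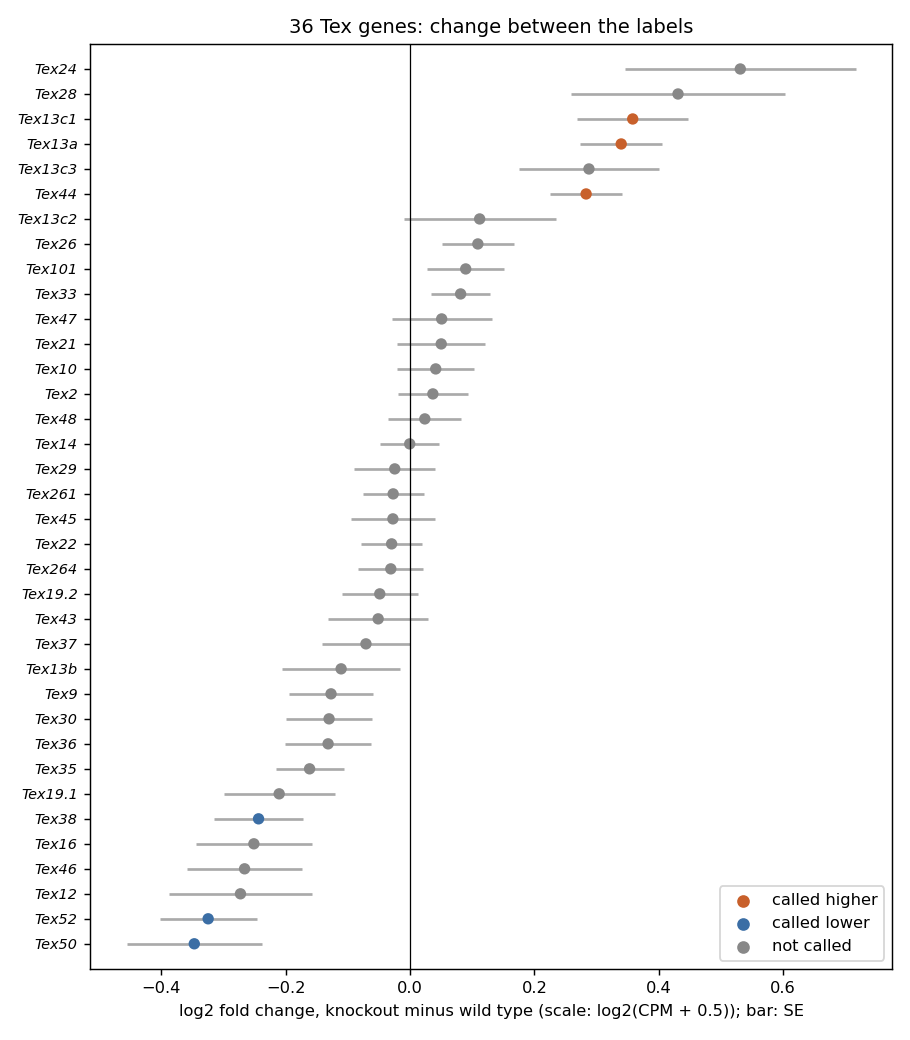
Log2 fold change (knockout label minus wild-type label, scale log2(CPM + 0.5)) of the 36 Tex genes, sorted, with the SE as bars. The 3 called higher reach 0.28 to 0.36 and the 3 called lower -0.35 to -0.24, while Tex24 has the largest value (0.53) and the widest SE (0.19) and was not called.

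Among 7 X-linked Tex genes, Tex13a and Tex13c1 rose and none fell. The Tex13 genes are a family of X-linked genes of male germ cells. Tex13a (ENSMUSG00000071686; chromosome X, 138208165 to 138209580 in GRCm38) stood at 58.3, 58.5, 59.2 and 56.4 CPM in the wild-type-labelled libraries, against 66.4, 84.5, 71.1 and 73.7 CPM in the knockout-labelled ones. The libraries labelled wild type lay within a few CPM of each other and below all 4 labelled knockout, a 1.27-fold higher mean (log2 fold change 0.34, SE 0.07, limma adjusted p = 0.0029). Tex13c1 (ENSMUSG00000078320; chromosome X, 43591160 to 43593532 in GRCm38) stood at 34.6, 36.8, 35.9 and 41.7 CPM in the wild-type-labelled libraries, against 46.5, 57.8, 41.6 and 46.7 CPM in the knockout-labelled ones. Its groups touch, since wild-type replicate 4 lies just above knockout replicate 3, and the mean was 1.29-fold higher (log2 fold change 0.36, SE 0.09, limma adjusted p = 0.013). Both genes were called in all 17 alternatives, and knockout replicate 2 was the highest library for both.

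The other 5 X-linked genes were low and did not pass. Tex13c3 stood at 5.61, 6.09, 4.62 and 5.63 CPM in the wild-type-labelled libraries, against 6.28, 6.98, 6.04 and 7.97 CPM in the knockout-labelled ones, and its groups overlap slightly (limma adjusted p = 0.10). Tex28 stood at 1.36, 1.76, 1.87 and 2.44 CPM in the wild-type-labelled libraries, against 3.77, 2.32, 2.16 and 2.53 CPM in the knockout-labelled ones, where knockout replicate 1 is the highest (log2 fold change 0.43, limma adjusted p = 0.10). Tex16 went the other way with 6.26, 5.69, 6.34 and 6.53 CPM in the wild-type-labelled libraries, against 4.99, 5.43, 4.78 and 5.33 CPM in the knockout-labelled ones: its groups did not overlap, but the limma adjusted p was 0.083. Tex13b and Tex13c2 stood at 7.12 ± 0.704 and 6.53 ± 0.289 CPM and at 4.70 ± 0.268 and 5.17 ± 0.954 CPM (wild-type label, then knockout label; limma adjusted p = 0.48 and 0.59). Over the whole X chromosome, 13.4% of 857 tested genes rose and 3.97% fell, against 8.33% and 8.50% of 20984 tested autosomal genes. The median log2 fold change was 0.04 on the X chromosome and 0.29 over its 7 Tex genes. Of the 4 tested genes on either side of Tex13c1, the actin-related gene Actrt1 (limma adjusted p = 0.0023) and the antisense gene 4930515L19Rik (limma adjusted p = 0.025) also rose. They lie far from Tex13c1, at 2735 and 2674 kb. Their starts lie next to each other on opposite strands, so they need not be separate signals. None of the 8 tested genes nearest to Tex13a in order, at 705 to 1210 kb, was called. The lowest limma adjusted p was that of 4930513O06Rik (0.056).

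The Tex13 copies differ in sequence. The transcripts of Tex13c1 and Tex13c2 matched at 74.3% over 261 aligned bases, those of Tex13a and Tex13b at 74.6% over 507 aligned bases and those of Tex13a and Tex13c1 at 72.2% over 54 aligned bases. No window of 50 bases of Tex13a or of Tex13c1 occurred in the annotated transcripts of another gene. In Tex13c3, 9.55% of the windows occurred in the pseudogene Gm40, whose values were 1.60 to 2.51 CPM under the wild-type and 1.36 to 2.17 CPM under the knockout label.

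**Figure D3:**
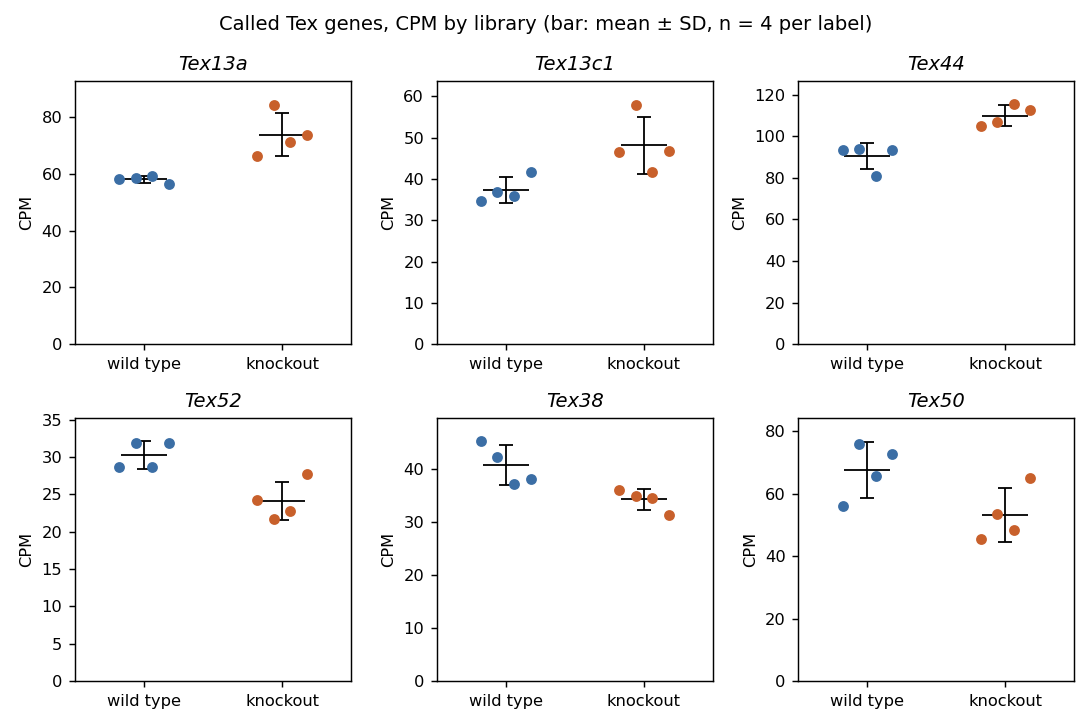
CPM in each library for the 6 called Tex genes, with the y axis from 0; points are libraries in the order of their replicate numbers, bars the mean ± SD (n = 4 per label). Tex13a, Tex44, Tex52 and Tex38 have groups that do not overlap, while those of Tex13c1 and Tex50 do.

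Tex44 (ENSMUSG00000036574; chromosome 1, 86426329 to 86428052 in GRCm38) was the autosomal Tex gene that rose. It stood at 93.3, 94.0, 81.1 and 93.3 CPM in the wild-type-labelled libraries, against 105, 107, 116 and 113 CPM in the knockout-labelled ones. All 4 libraries labelled knockout lay above the 4 labelled wild type, of which replicate 3 was low, and the mean was 1.22-fold higher (log2 fold change 0.28, SE 0.06, limma adjusted p = 0.0040). It was called in all 17 alternatives. None of its 8 tested neighbours was called, among them Nmur1, whose start lies next to that of Tex44 on the other strand and which varied within the knockout label (4.03, 10.8, 11.8 and 5.70 CPM).

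Of the 3 genes that fell, Tex52 (ENSMUSG00000079304; chromosome 6, 128375456 to 128385144 in GRCm38) was the one called in all 17 alternatives. Its values were 28.7, 31.8, 28.6 and 31.9 CPM in the wild-type-labelled libraries, against 24.3, 21.7, 22.8 and 27.7 CPM in the knockout-labelled ones. Every library labelled knockout lay below every library labelled wild type, although knockout replicate 4 came close, and the mean was 1.25-fold lower (log2 fold change -0.32, SE 0.08, limma adjusted p = 0.011). Tex52 starts inside the end of Foxm1, a cell cycle transcription factor gene on the same strand, and 5.26% of its 50-base windows are also in Foxm1 or in Gm44596. Foxm1 stood at 179 ± 7.67 and 178 ± 14.3 CPM (limma adjusted p = 0.95). Nearby, Tulp3 and the antisense gene Gm26770 rose (limma adjusted p = 0.0074 and 0.0010) and Itfg2 fell (limma adjusted p = 0.0044).

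Tex38, the partner of ZDHHC19 in spermatids (ENSMUSG00000044556; chromosome 4, 115779834 to 115781018 in GRCm38), stood at 45.2, 42.2, 37.1 and 38.1 CPM in the wild-type-labelled libraries, against 36, 34.9, 34.6 and 31.3 CPM in the knockout-labelled ones. The groups did not overlap, and wild-type replicate 3 and knockout replicate 1 differed by about 1 CPM. The mean was 1.19-fold lower (log2 fold change -0.24, SE 0.07, limma adjusted p = 0.031). The call did not hold when wild-type replicate 1 or 2 or knockout replicate 3 or 4 was left out, with limma adjusted p between 0.051 and 0.10. Its neighbour Efcab14 rose (log2 fold change 0.17, limma adjusted p = 0.043) and so did Mob3c (limma adjusted p = 0.0089).

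Tex50 (ENSMUSG00000049160; chromosome 1, 161154558 to 161159314 in GRCm38) stood at 55.9, 76.0, 65.5 and 72.8 CPM in the wild-type-labelled libraries, against 45.5, 53.6, 48.4 and 65.1 CPM in the knockout-labelled ones. Wild-type replicate 1 and knockout replicate 4 cross, so the groups overlap, and the mean was 1.27-fold lower (log2 fold change -0.35, SE 0.11, limma adjusted p = 0.041). The call did not hold when wild-type replicate 2, 3 or 4 or knockout replicate 1, 2 or 3 was left out, with limma adjusted p between 0.068 and 0.12. Tex50 lies within the span of Ankrd45 on the opposite strand, and Ankrd45 rose, from 53.6 ± 2.89 to 62.2 ± 0.112 CPM (limma adjusted p = 0.011). Whether the counting used strand was not given in the sources used here. No 50-base window of the Tex50 transcripts occurred in an annotated transcript of Ankrd45 or of another gene. Those transcripts are spliced, so the windows do not cover reads of unspliced Ankrd45 RNA. Whether such reads were counted for Tex50 was not tested. Among its other tested neighbours, the pseudogenes Gm6185 and Gm15429, at 17.6 and 567 kb, fell (limma adjusted p = 7.0e-04 and 0.014).

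The bases before the RefSeq start of 4 called genes are shown because these genes moved in opposite directions, 2 up and 2 down, and the letters can be compared. RefSeq (GRCm38.p6) gives a start for 31 of the 36 Tex genes, among the called ones all but Tex13a. The window holds up to 250 bases before the start, cut where an annotated exon begins, which leaves 100 bases for Tex44 and none for Tex52. Capitals mark the short form of the cAMP response element, TGACG, and the MYB core, AACNG, on either strand.
Tex13c1 (rose; chrX:43590739-43590988, plus strand): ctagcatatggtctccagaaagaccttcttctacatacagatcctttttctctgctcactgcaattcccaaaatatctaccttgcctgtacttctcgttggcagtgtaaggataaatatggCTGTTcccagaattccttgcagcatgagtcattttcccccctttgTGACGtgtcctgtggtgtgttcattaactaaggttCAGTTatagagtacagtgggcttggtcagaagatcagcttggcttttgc
Tex44 (rose; chr1:86426229-86426328, plus strand): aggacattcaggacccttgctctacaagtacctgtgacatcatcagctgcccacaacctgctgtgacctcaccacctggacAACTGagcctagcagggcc
Tex38 (fell; chr4:115781035-115781284, minus strand): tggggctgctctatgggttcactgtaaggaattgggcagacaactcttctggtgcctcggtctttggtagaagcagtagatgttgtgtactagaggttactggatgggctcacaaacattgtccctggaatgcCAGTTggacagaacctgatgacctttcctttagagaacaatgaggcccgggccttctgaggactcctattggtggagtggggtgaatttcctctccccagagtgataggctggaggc
Tex50 (fell; chr1:161159315-161159564, minus strand): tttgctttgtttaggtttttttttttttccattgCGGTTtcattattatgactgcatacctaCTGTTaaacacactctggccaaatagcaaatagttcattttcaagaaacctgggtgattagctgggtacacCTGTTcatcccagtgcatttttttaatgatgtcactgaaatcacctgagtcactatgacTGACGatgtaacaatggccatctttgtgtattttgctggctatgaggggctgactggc
The short form TGACG (or CGTCA) occurred once in Tex13c1, which rose, and once in Tex50, which fell. It occurred in 3 of 31 Tex windows of 250 bases (9.68%) and in 17.8% of 32851 such windows in the table. The full element TGACGTCA, which contains the short form, was in none of the 31 and in 1.55% of all windows. AACNG (or CNGTT) was found in all 4 printed windows, in 27 of 31 Tex windows (87.1%) and in 74.2% of all windows. TATAAA was in 3 of 31 (9.68%) and in 12.4% of all. A match is a run of letters and not a shown binding site.

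Another 8 Tex genes had an unadjusted p under 0.05 without being called, 3 of them X-linked (Tex16, Tex13c3 and Tex28, above). Tex35 stood at 184, 196, 196 and 200.2 CPM in the wild-type-labelled libraries, against 159.8, 173, 172 and 189 CPM in the knockout-labelled ones, which overlap (log2 fold change -0.16, limma adjusted p = 0.058). Tex46 stood at 25.2, 25, 22.1 and 28.5 CPM in the wild-type-labelled libraries, against 17.4, 21.9, 21.4 and 22.8 CPM in the knockout-labelled ones, with knockout replicate 1 the lowest (log2 fold change -0.27, limma adjusted p = 0.066). Each of these 2 genes passed in 3 of 17 alternatives, DESeq2 on the recovered reads among them. The meiotic gene Tex12 and Tex19.1 also had lower means and are given with their partners below.

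Tex24 (ENSMUSG00000071138; chromosome 8, 27344394 to 27349188 in GRCm38) had the largest log2 fold change of all Tex genes and was not called. It stood at 41.0, 42.9, 44.7 and 44.4 CPM in the wild-type-labelled libraries, against 85.7, 61.3, 37.0 and 79.3 CPM in the knockout-labelled ones. The libraries labelled wild type were close together (coefficient of variation 3.92%), whereas the libraries labelled knockout differed among themselves (33.2%, against a median of 8.20% over the Tex genes). Replicates 1, 2 and 4 lay above the wild-type label and replicate 3 below it. Over all libraries the log2 fold change was 0.53 (SE 0.19, limma adjusted p = 0.067). Without knockout replicate 3 it was 0.78 (limma adjusted p = 8.0e-05), and with all 8 libraries the gene was called by edgeR on the recovered reads (adjusted p = 0.035) but not by DESeq2 (adjusted p = 0.093). In all, 3 of 17 alternatives called Tex24. Of the 50-base windows of Tex24, 32.7% also occur in the pseudogene Gm6853 or in Gm8110, both on chromosome 8, so its level is uncertain. Gm6853 stood at 27.7 to 29.7 CPM under the wild-type label and 27.3 to 32.2 CPM under the knockout label, and Gm8110 at 1.69 to 2.90 and 1.36 to 3.47 CPM.

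Some other genes within 1 Mb of Tex24 differed among the same libraries, but genes nearer to it did not all do so. In knockout replicates 1 to 4, Gm9731 stood at 8.44, 7.58, 8.55 and 8.32 CPM and Eif4ebp1 at 10.8, 10.9, 11.1 and 9.34 CPM. The low gene Chrnb3 stood at 0.67, 1.03, 0.90 and 1.05 CPM there. The genes given next were picked after their values were seen. Gm45751 stood at 1.99, 2.57, 2.96 and 2.41 CPM in the wild-type-labelled libraries, against 4.73, 3.52, 2.23 and 4.74 CPM in the knockout-labelled ones, and Gm8096 at 3.50, 3.70, 2.87 and 4.22 CPM in the wild-type-labelled libraries, against 7.36, 6.09, 4.75 and 6.61 CPM in the knockout-labelled ones. Gm45751 and Gm8096 overlap on the same strand, so they need not be separate signals. In both, knockout replicate 3 was the lowest of its group and replicates 1 and 4 the highest, as in Tex24. The low gene Poteg had 29, 30, 23 and 26 reads under the wild-type label and 0, 9, 22 and 0 reads in knockout replicates 1 to 4. Gm1698 had 6, 37, 37 and 6 reads in these 4 libraries, against 34 to 59 under the wild-type label. Knockout replicates 1 and 4 were thus low for these 2 genes and high for Tex24, while replicate 3 lay near the wild-type label in Tex24, Gm45751, Poteg and Gm1698. The source of this split was not tested. Of the 8 tested genes next to Tex24, 3 were called, while 16.9% of all tested genes were called. Poteg fell (limma adjusted p = 0.022), and Got1l1 fell to 42.4, 48.0, 46.4 and 38.9 CPM in knockout replicates 1 to 4, from 59.2 to 65.8 CPM under the wild-type label (log2 fold change -0.51, limma adjusted p = 1.7e-04). Gm45861 rose to 196 to 243 CPM, from 180.3 to 189.7 CPM (log2 fold change 0.20, limma adjusted p = 0.039). In Got1l1 replicates 1 and 4 were the lower pair, as in Poteg and Gm1698, and in Gm45861 replicate 3 was the highest. Poteg and Gm1698 both lie within the span of Gm45861 on the same strand, so these need not be separate signals either.

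**Figure D4:**
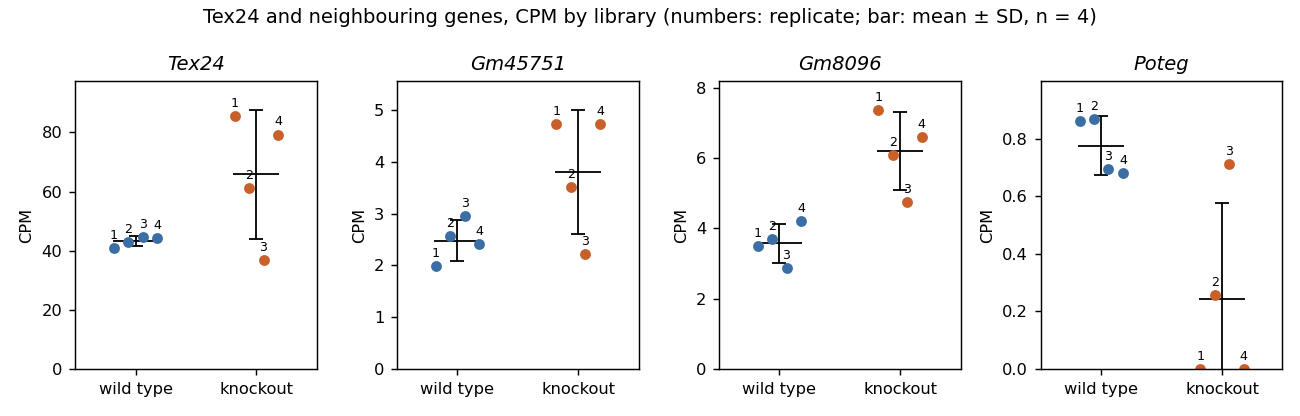
CPM of Tex24 and of 3 genes within 1 Mb of it in each library, with the y axis from 0; numbers are replicate numbers and bars the mean ± SD (n = 4 per label). Knockout replicates 1 and 4 stand apart from replicate 3 in all 4 panels, high for Tex24, Gm45751 and Gm8096 and at 0 for Poteg. Gm45751 and Gm8096 overlap on the same strand. The 3 genes were picked after their values were seen.

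The Tex genes of meiosis and of germ cell cohesion were not called. Tex14, the scaffold of the intercellular bridges, stood at 76.2, 76.7, 72.3 and 73.5 CPM in the wild-type-labelled libraries, against 76.5, 71.8, 76.0 and 74.3 CPM in the knockout-labelled ones, nearly the same in every library (log2 fold change -0.0005, 95% interval -0.10 to 0.10, limma adjusted p = 0.996). Of 11 other genes of the bridge and the cell division machinery it is built from, 1 fell and none rose, and the list had a median of -0.12 on the log2 scale. The gene that fell was Rbm44, an RNA-binding protein of the bridge, from 91.5 ± 3.48 to 80.0 ± 0.410 CPM, with no overlap between the groups (limma adjusted p = 0.011). Ect2 and Cep55, both of cytokinesis, had unadjusted p under 0.05 and limma adjusted p of 0.11 and 0.15.

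Tex12 of the synaptonemal complex stood at 12.5, 14.1, 13.7 and 11.5 CPM in the wild-type-labelled libraries, against 12.1, 12.3, 8.46 and 9.92 CPM in the knockout-labelled ones, where knockout replicates 3 and 4 were low and the groups overlap (log2 fold change -0.27, 95% interval -0.52 to -0.03, limma adjusted p = 0.12). Of 9 other genes of the complex and the chromosome axis, Sycp1, its transverse filament, fell from 177 ± 20.2 to 143 ± 18.5 CPM (limma adjusted p = 0.037) and none rose. The call of Sycp1 was lost without wild-type replicate 1, 2 or 3 or knockout replicate 3 or 4 (limma adjusted p = 0.060 to 0.11). Syce2, which binds Tex12 directly, stood at 139.7 ± 2.69 and 154 ± 11.9 CPM (limma adjusted p = 0.11).

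Tex19.1, which restrains transposons in germ cells, stood at 10.9, 10.6, 11 and 9.28 CPM in the wild-type-labelled libraries, against 9.66, 9.27, 7.94 and 8.91 CPM in the knockout-labelled ones. Wild-type replicate 4 fell among the libraries labelled knockout, and the gene was not called (log2 fold change -0.21, 95% interval -0.40 to -0.02, limma adjusted p = 0.13). Its neighbour and copy Tex19.2 stood at 28.5, 28, 29.2 and 32.0 CPM in the wild-type-labelled libraries, against 29.0, 29.4, 27.8 and 27.4 CPM in the knockout-labelled ones (limma adjusted p = 0.64). The transcripts of the 2 copies matched at 76.9% over 1202 aligned bases, and 2.67% of the 50-base windows of Tex19.1 also occur in Tex19.2. Of 12 genes of transposon silencing, Dnmt3l, a cofactor of DNA methylation, fell from 10.4 ± 1.10 to 8.0 ± 1.11 CPM (limma adjusted p = 0.038), and none rose. This call was lost without wild-type replicate 1, 2 or 3 or knockout replicate 3 or 4 (limma adjusted p = 0.052 to 0.12) and after quantile normalization (limma adjusted p = 0.057). Ubr2, the ubiquitin ligase that binds Tex19.1, stood at 27.8 ± 0.824 and 25.3 ± 1.38 CPM (limma adjusted p = 0.15).

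Of the Tex genes of spermatids and sperm with a role given above, Tex38 was called and Tex101, Tex43 and Tex37 were not. Tex101, the surface protein that ADAM3 needs to mature, stood at 181, 160.5, 172 and 159 CPM in the wild-type-labelled libraries, against 193, 188, 163 and 172 CPM in the knockout-labelled ones. The groups overlap (log2 fold change 0.09, 95% interval -0.04 to 0.22, limma adjusted p = 0.36). Of 17 genes of ADAM3 maturation and the sperm surface, 2 rose and 1 fell. Rnase10, a ribonuclease-like gene whose main site of action is known as the epididymis, rose 2.66-fold from a low 1.96 ± 0.174 to 5.23 ± 0.617 CPM (limma adjusted p = 8.6e-06), and Pmis2, a gene of sperm migration, from 53.5 ± 1.80 to 65.2 ± 3.23 CPM (limma adjusted p = 0.0022). Adam1a, a gene of the ADAM metalloprotease family, fell from 148 ± 6.57 to 133 ± 2.03 CPM (limma adjusted p = 0.042). This call was lost without wild-type replicate 1, 2 or 4 or knockout replicate 2, 3 or 4 (limma adjusted p = 0.062 to 0.13) and with median ratio scaling (limma adjusted p = 0.051). None of the 6 epididymis markers looked for (Crisp1, Lcn5, Lcn8, Defb20, Spink13 and Adam28) is among the listed genes. No listed gene has fewer than 30 reads in total, so absence from the list does not mean that a gene had no reads.

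In the flagellum, Tex43 stood at 104, 113, 105 and 105 CPM in the wild-type-labelled libraries, against 98.4, 127, 93.2 and 96.5 CPM in the knockout-labelled ones. Replicate 2 was the highest library under both labels, and the groups overlap (log2 fold change -0.05, limma adjusted p = 0.72). Tex37 stood at 164 ± 8.86 and 156 ± 16.8 CPM, Tex33 at 438 ± 21.7 and 463 ± 12.8 CPM and Tex45 at 53.5 ± 5.41 and 52.3 ± 1.61 CPM (limma adjusted p = 0.55, 0.28 and 0.83). Of 18 measured genes of other inner proteins of the microtubule doublets, Efhc2 rose from 28.3 ± 1.21 to 33.8 ± 3.45 CPM (limma adjusted p = 0.030) and Tekt4, a tektin of the sperm tail, fell from 324 ± 16 to 271 ± 7.26 CPM (limma adjusted p = 0.0019). The call of Efhc2 was lost without wild-type replicate 1, 2 or 4 or knockout replicate 1 or 2 (limma adjusted p = 0.068 to 0.081). The CatSper calcium channel has a subunit with the older name Tex40, which the table of symbols lists as Catsperz and the rule does not take. Of 11 other genes of the channel 2 fell: Catspere1, which GENCODE M21 lists as a pseudogene, from 74.7 ± 6.42 to 55.4 ± 1.92 CPM (limma adjusted p = 3.2e-04), and Catspere2 from 70.8 ± 3.88 to 39.1 ± 20.6 CPM (limma adjusted p = 0.032). Catspere2 differed among the libraries labelled knockout, with 29.7, 57.5, 54.7 and 14.6 CPM in replicates 1 to 4. Its call was lost without any 1 of the libraries labelled wild type or without knockout replicate 1 (limma adjusted p = 0.061 to 0.075), by edgeR (adjusted p = 0.056) and by DESeq2 (adjusted p = 0.16). Its log2 fold change was -1.03, and -0.63 without knockout replicate 4.

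None of the 4 Tex genes that serve most cell types was called by limma, edgeR or DESeq2, nor had any an unadjusted p under 0.05. Tex2, the most abundant in CPM, stood at 710.3, 689, 716 and 673 CPM in the wild-type-labelled libraries, against 773, 645, 706 and 742 CPM in the knockout-labelled ones (log2 fold change 0.04, 95% interval -0.08 to 0.16, limma adjusted p = 0.71). Tex10 stood at 100.4, 107, 113 and 92.2 CPM in the wild-type-labelled libraries, against 108, 101, 104 and 111 CPM in the knockout-labelled ones (95% interval of the log2 fold change -0.09 to 0.17, limma adjusted p = 0.71). It overlaps Invs on the opposite strand, which fell from 9.80 to 6.98 CPM (limma adjusted p = 0.0022). Of 7 genes of the complexes that hold Tex10, limma, edgeR and DESeq2 called 0, and 0 had an unadjusted p under 0.05 by limma. The 2 of smallest p were Mdn1 at 168 ± 8.4 and 178 ± 12.6 CPM and Las1l at 16.9 ± 0.702 and 15.7 ± 1.29 CPM (limma adjusted p = 0.35 and 0.41).

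Tex264, the receptor for autophagy of the endoplasmic reticulum, stood at 58.5, 56.6, 53.7 and 53.4 CPM in the wild-type-labelled libraries, against 52.1, 54.9, 56.4 and 53.9 CPM in the knockout-labelled ones (95% interval of the log2 fold change -0.14 to 0.08, limma adjusted p = 0.74). Of 8 other such receptors Rtn3 fell from 180.0 ± 6.66 to 156 ± 3.77 CPM, with no overlap (limma adjusted p = 0.0065). Tex261 stood at 85.5, 83.1, 87.6 and 86.3 CPM in the wild-type-labelled libraries, against 79.2, 82.7, 86.4 and 87.9 CPM in the knockout-labelled ones (95% interval of the log2 fold change -0.13 to 0.08, limma adjusted p = 0.76). Of 10 genes of the COPII coat, which buds vesicles from the endoplasmic reticulum, Sec24d fell 1.69-fold from 6.32 ± 0.571 to 3.74 ± 0.363 CPM (limma adjusted p = 5.3e-04). Sec31a rose from 134 ± 2.45 to 151 ± 8.06 CPM (limma adjusted p = 0.030) and lost the call without wild-type replicate 1, 2 or 4 or knockout replicate 1, 3 or 4 (limma adjusted p = 0.060 to 0.080). Over the 9 lists together, 4 of 103 genes rose and 9 fell, 12.6% against 16.9% of all tested genes.

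**Figure D5:**
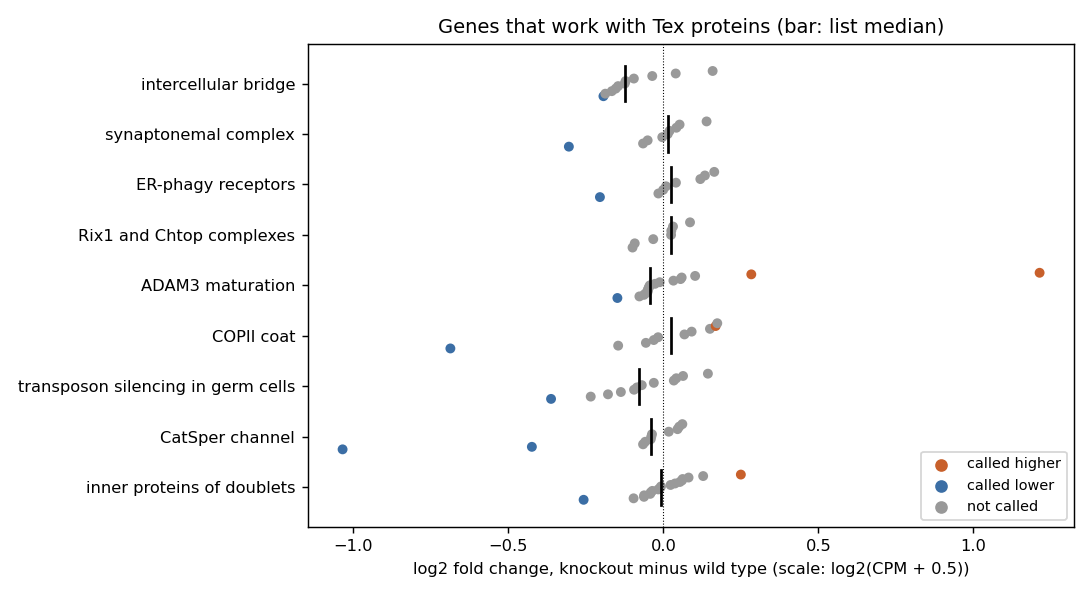
Log2 fold change (knockout label minus wild-type label, scale log2(CPM + 0.5)) of 103 genes in 9 lists of genes that work with Tex proteins; each point is a gene and each bar the list median. The medians lie between -0.12 (intercellular bridge) and 0.03 (COPII coat), and Rnase10 (1.21) and Catspere2 (-1.03) lie farthest out.

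The other members, with an unadjusted p of 0.05 or more, numbered 22 with those named above, and their log2 fold changes ran from -0.13 (Tex36) to 0.11 (Tex13c2), with limma adjusted p from 0.22 (Tex30) upward. Tex30 and Tex36 stood at 83.7 ± 2.12 and 76.8 ± 8.43 CPM and at 112 ± 6.31 and 103 ± 10.5 CPM, Tex26 at 39.9 ± 1.63 and 43.1 ± 2.34 CPM and Tex9 at 52.5 ± 4.65 and 48.0 ± 2.71 CPM (wild-type label, then knockout label). Tex9 shares 29.6% of its 50-base windows with other genes, among them Mns1, which it overlaps on the opposite strand, and Tex30 shares 13.5% with Gm29247, so both levels are uncertain. Tex26 overlaps 4933425D22Rik on the same strand, which rose from 66.4 to 87.3 CPM (limma adjusted p = 2.0e-04). Tex48, high per length, stood at 169.8 ± 6.59 and 173 ± 14.1 CPM, Tex22 at 172 ± 2.69 and 169 ± 9.79 CPM, Tex21 at 159 ± 10.9 and 165 ± 16.2 CPM, Tex29 at 111 ± 5.67 and 109.7 ± 10.3 CPM and Tex47 at 67.6 ± 6.37 and 70.1 ± 7.38 CPM. A p above the threshold does not show that a level was the same.

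Among the libraries labelled knockout, replicate 3 was the lowest for 18 of the 36 Tex genes and the highest for 3, and replicate 2 was the highest for 13. The 36 genes summed to 3553 to 3627 CPM under the wild-type label and to 3463 (replicate 3) to 3696 CPM under the knockout label. Germ cell markers were present in every library. The summed level of 8 markers was 1453 to 1522 CPM under the wild-type label and 1445 to 1581 CPM under the knockout label for round spermatids, with none called, and 23961 to 25326 CPM under the wild-type label and 21179 to 27381 CPM under the knockout label for elongating spermatids, with none called. For 8 spermatocyte markers it was 940.5 to 968 CPM under the wild-type label and 939.7 to 1078 CPM under the knockout label, with 1 higher and 1 lower, and for 8 spermatogonial markers 131 to 144 CPM under the wild-type label and 123 to 132 CPM under the knockout label, with 2 lower. Of the somatic cell markers, 4 of 6 for Leydig cells fell and 1 rose. For Sertoli cells 3 of 8 fell, for peritubular myoid cells 3 of 5 and for endothelial cells 2 of 4. None of 5 macrophage markers was called. Over all tested genes 8.62% rose and 8.32% fell. Each marker list holds few genes, and no list was tested as a set. For the 3 marker lists with no call, edgeR and DESeq2 also made none, and 1 marker in each had an unadjusted p under 0.05 by limma. The summed level of the Leydig markers was 988 to 1182 CPM under the wild-type label and 635 to 1055 CPM under the knockout label. For Sertoli markers it was 922 to 991 CPM under the wild-type label and 789 to 926 CPM under the knockout label, and for peritubular myoid markers 66.5 to 89.4 CPM under the wild-type label and 43.9 to 61.4 CPM under the knockout label. Endothelial markers summed to 27.4 to 30.8 CPM under the wild-type label and 20.8 to 25.2 CPM under the knockout label, and macrophage markers to 32.9 to 39.0 CPM under the wild-type label and 28.5 to 40.0 CPM under the knockout label. The part of these shifts in the values of the Tex genes was not tested.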

How the data were processed

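Total RNA of adult testis was taken up in TRIzol and treated with DNase before TruSeq libraries were made, per the labels' protocols. Trimmomatic, Subread, featureCounts and the build GRCm39 (mm39) are named, per the submitters' processing notes, while versions, annotation, strand setting and the treatment of reads with several matches were not given in the sources used here. The authors deposited 1 table of 24988 genes by 8 libraries as a per-library scaled signal called CPM in its name. Its columns control and kpn 1 to 4 were matched to the titles by number, taking control as wild type. Column totals were 990244 to 1025489, and dividing a column by its smallest value above 0 gave whole reads, within 0.01, for 100% of values. The unit differs from the plain CPM assumed in the plan, and the planned log-scale test was kept.

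Groups were compared with limma 3.58.1 (lmFit, eBayes with a trend; R 4.3.3) on log2(CPM + 0.5) with Benjamini-Hochberg adjustment over 22027 genes. The script was tested on simulated data first. edgeR 4.0.16 (quasi-likelihood) and DESeq2 1.42.0 on these reads, scaled as the authors did, called 3694 and 3977 genes over the table. The 17 alternatives were these, other scalings, pseudocounts and filters, the replicate block and each library left out. Same-numbered libraries of the 2 labels did not deviate together (correlations -0.0308 to 0.0386), so the numbers were not treated as pairs.

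Symbols were found for 24890 identifiers. Positions and exon lengths are those of GENCODE M21 on GRCm38, another build than the authors used, without conversion. Members and lists were chosen with earlier results of these data known. Values in all libraries are given for Tex genes that were called or had an unadjusted p under 0.05. They are also given for most Tex genes with a known role and for the highest and the lowest in mean CPM. Others, among them Tex33, Tex37, Tex13c2, Tex9 and Tex30, are given as mean ± SD. Partner genes are named where called, with a few others of small p. Of 24 inner proteins of the doublets, 18 were among the listed genes.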

Additional observations from a re-analysis of the deposited data

Results flagged for a closer look

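In 3 of 72 groups of 4 libraries (36 Tex genes by 2 labels) 1 library lay far from the other 3 by Dixon's criterion, and chance alone flags about 1 group in 20. Tex44 had 81.073 CPM in wild-type replicate 3, against 93.3 to 94.0 CPM in the other 3. Tex43 had 112.784 CPM in wild-type replicate 2, against 104 to 105 CPM, and 126.801 CPM in knockout replicate 2, against 93.2 to 98.4 CPM. Both flagged libraries of Tex43 carry the number 2, a number that did not pair the libraries over all genes.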

How the results depend on the processing

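Tex13a, Tex13c1, Tex44 and Tex52 kept their direction and their call in all 17 alternatives, and Tex38 and Tex50 kept their direction. Tex genes called lower numbered 1 to 3 with 1 library left out and 5 by DESeq2, against 3, and the count higher was 3 or 4. Over all tested genes, the share lower was 6.1% to 8.03% with 1 library left out and 8.75% by DESeq2, against 8.32%. The share higher was 6.57% to 8.19% with 1 library left out, against 8.62%. With the replicate block, 4 Tex genes were called higher and 4 lower, and 3446 genes over the table against 3731, Tex24 and Tex46 being the additional Tex genes, while Adam1a and Sec31a were not called (limma adjusted p = 0.074 and 0.051); the numbers did not pair the libraries. Tex genes whose groups do not overlap numbered 8 after quantile normalization and 6 to 10 with 1 library left out, 10 being without knockout replicate 3, against 5; over all tested genes the share was 20.8%, 24.2% to 27.3% (25% without knockout replicate 3) and 20.9%. Genes of the partner lists called numbered 2 to 5 higher and 5 to 8 lower with 1 library left out, against 4 and 9. With 1 library left out the shares over all tested genes fell too, as given above. The fewest higher were without wild-type replicate 1, 2 or 4 or knockout replicate 1, and the fewest lower without wild-type replicate 1 or 2. The direction turned for 10 uncalled Tex genes, all with a log2 fold change of at most 0.07 in size. With 1 library left out their values ran as follows: Tex10 -0.0112 to 0.0860, Tex14 -0.0158 to 0.0179, Tex2 -0.0012 to 0.0862, Tex22 -0.0568 to 0.0075, Tex261 -0.0488 to 0.0008, Tex29 -0.0734 to 0.0205, Tex37 -0.1213 to 0.0033, Tex45 -0.0700 to 0.0360, Tex47 -0.0176 to 0.1034 and Tex48 -0.0260 to 0.0545. Tex14 was 0.0048 with median ratio scaling. The cause was not tested. The low X-linked genes had the fewest reads, down to 46 for Tex28 in 1 library. What depth does to their calls was not tested.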
